A study of Mus musculus with 6 samples.

Results

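The data cover 10 genes that are known as transient between the oligodendrocyte progenitor and the myelinating oligodendrocyte, namely Enpp6, Bcas1, Gpr17, Bmp4, Neu4, Tns3, Itpr2, Dusp15, Rras2 and 9630013A20Rik. They were chosen by symbol from the 32285 genes of the count matrix, and each symbol matched 1 row. The rule names symbols and no measured value, but it was written with earlier results of these data known. The matrix holds single-nucleus RNA-sequencing (snRNA-seq) of the forebrain of 3 WT mice and 3 Npc1-/- littermates at postnatal day 16 (P16), untreated, in 6 libraries. Npc1 encodes a lysosomal cholesterol transporter, and by the methods of the study Npc1-/- mice were F1 hybrids of BALB/cJ and C57BL6/J parents that carried the Npc1nih allele. Nuclei were taken from flash-frozen tissue, and RNA molecules were counted as unique molecular identifiers (UMIs). The 6 libraries are marked by a barcode suffix from 1 to 6 with no key from suffix to mouse in the sources used here, so WT was not compared with Npc1-/- and libraries are named by suffix only.

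Oligodendrocytes arise from oligodendrocyte progenitor cells (OPCs), which divide, leave the cell cycle, pass through an immature stage with many fine processes and then wrap axons with myelin. Genes of the immature stage are switched on when a progenitor commits and are turned down again in the myelinating cell, so they mark cells that are in transit. In the postnatal mouse forebrain this transit is under way in many cells at once, and a stage that each cell leaves again can be sampled in 1 tissue.

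Among the signals of the group, Bmp4 (chr14:46383520-46390669, minus strand, GRCm38) encodes a secreted ligand that holds back oligodendrocyte differentiation, and Gpr17 (minus strand) encodes a G protein-coupled receptor of the committed precursor. The enzymes are Enpp6 (chr8:46986887-47096762, plus strand), a choline-specific phosphodiesterase, Neu4 (chr1:94020451-94028334, plus strand), a sialidase, and Dusp15 (chr2:152940997-152951698, minus strand), a phosphatase anchored to membranes. Itpr2 (chr6:146108299-146502223, minus strand) is an inositol trisphosphate receptor that releases calcium from the endoplasmic reticulum, and Rras2 (chr7:114046782-114117781, minus strand) is a small GTPase of the R-Ras family. Tns3 (chr11:8431652-8664535, minus strand) encodes a tensin, which links integrins to actin, and Bcas1 (chr2:170346991-170427845, minus strand) encodes a cytoplasmic protein of early myelinating cells. The remaining member, 9630013A20Rik (chr14:84458639-84476424, minus strand), is a long non-coding RNA also known as lncOL1. GENCODE places antisense genes over 7 of the 10 members and none over Neu4, Tns3 or Dusp15. The sources used here do not say whether reads were counted by strand. It is therefore not known how well reads of Bcas1 and its antisense transcript Bcas1os2 were kept apart, and likewise those of Gpr17 and Lims2 and those of 9630013A20Rik and Pcdh17. Lims2 is also 1 of the 5 markers that name the immature class, so the Gpr17 level in that class cannot be taken as independent of the name.

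Promoter sequence was at hand for 7 of the 10 members (RefSeq, GRCm38.p6), and for Bcas1, Dusp15 and Gpr17 it is not analysed here. The 250 bases before the start are shown for 5 members, Bmp4 as a gene of the early part of the immature stage, Rras2 and 9630013A20Rik as genes of its late part, and Enpp6 and Tns3 as genes high in both parts. They lie at chr8:46986637-46986886 (plus strand), chr14:46390670-46390919 (minus), chr11:8664536-8664785 (minus), chr7:114117782-114118031 (minus) and chr14:84476425-84476674 (minus). Capitals mark matches, on either strand, to 6 short motifs of factors that act in this lineage, ACAAAG and ACAATG (SOX), CAGCTG and CAGATG (E-box), and CTGGCAC and CTGGTAC (MYRF).
Enpp6: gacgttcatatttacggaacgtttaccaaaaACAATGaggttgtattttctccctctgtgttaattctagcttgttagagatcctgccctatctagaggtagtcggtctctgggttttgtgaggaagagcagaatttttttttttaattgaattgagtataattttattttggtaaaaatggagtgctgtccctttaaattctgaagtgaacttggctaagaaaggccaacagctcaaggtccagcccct
Bmp4: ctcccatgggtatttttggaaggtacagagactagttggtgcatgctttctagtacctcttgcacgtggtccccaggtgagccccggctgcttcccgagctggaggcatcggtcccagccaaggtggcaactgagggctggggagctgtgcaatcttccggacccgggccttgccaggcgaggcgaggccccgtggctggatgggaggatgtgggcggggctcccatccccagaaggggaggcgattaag
Tns3: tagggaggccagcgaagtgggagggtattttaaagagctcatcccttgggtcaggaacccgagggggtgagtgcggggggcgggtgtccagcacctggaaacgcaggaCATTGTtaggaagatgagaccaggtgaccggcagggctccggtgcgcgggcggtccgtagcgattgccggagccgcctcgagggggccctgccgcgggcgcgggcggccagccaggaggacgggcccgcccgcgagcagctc
Rras2: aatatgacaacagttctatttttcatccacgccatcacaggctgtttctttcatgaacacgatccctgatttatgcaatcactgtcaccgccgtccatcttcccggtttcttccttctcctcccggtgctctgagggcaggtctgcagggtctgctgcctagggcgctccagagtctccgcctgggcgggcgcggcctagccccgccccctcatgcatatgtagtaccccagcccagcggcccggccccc
9630013A20Rik: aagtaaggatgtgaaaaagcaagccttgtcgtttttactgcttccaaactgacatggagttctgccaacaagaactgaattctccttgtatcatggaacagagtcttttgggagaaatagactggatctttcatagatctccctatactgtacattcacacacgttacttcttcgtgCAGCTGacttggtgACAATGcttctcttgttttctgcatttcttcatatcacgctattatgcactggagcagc
The motif ACAATG was found in Enpp6 (first base at -219, where -1 is the base before the start), Tns3 (at -142, on the other strand) and 9630013A20Rik (at -59), which is 3 of the 7 members, and in 10.7% of 32851 mouse promoters of the same length. The other motifs were found in 16.5% (ACAAAG), 14.4% (CAGATG), 4.19% (CTGGCAC) and 1.83% (CTGGTAC) of all promoters. CAGCTG, which reads the same on both strands, was found in 9630013A20Rik (at -73) and in 4271 of the 32851 promoters. No match to any of the 6 motifs lay in the windows of Bmp4, Neu4, Itpr2 and Rras2. The GC content ranged from 38.4% for Enpp6 to 74.4% for Itpr2, against a median of 52.4% over all promoters. These matches describe letters and are not measured binding sites.

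The 6 libraries held 51343653 to 107583300 UMIs, with a median of 4469 to 5439 UMIs per nucleus, and 75867 nuclei were kept. Of 75245 distinct 16-base barcodes, 631 occurred in 2 or more libraries. Clustering without the 10 members gave 35 clusters, 44.9% of nuclei lay in clusters left unnamed, and 6 clusters were named from marker lists as OPC-like (4102 nuclei), immature-like (1818 nuclei), mature-like (2490 nuclei) or dividing (534 nuclei). The first 3 classes, called OPC-like, immature and mature here, form the lineage of 8410 nuclei. Pdgfra, the growth factor receptor of progenitors, stood at 398 CPM (UMIs of the gene per 1000000 UMIs of the class) in OPC-like, 15.4 in immature and 21.7 in mature nuclei. Mog, a protein of the outer myelin surface, stood at 16.2, 46.3 and 818 CPM in the same order, and the kinase gene Fyn at 356, 2598 and 360 CPM. Not every marker followed the names, since Tnr and Sox6 of the OPC list were higher in immature (6101 and 1839 CPM) than in OPC-like nuclei (2215 and 1366 CPM), Cnksr3 of the immature list was higher in mature (607 CPM) than in immature nuclei (350 CPM), and Fyn was the only marker among the 10 leading genes of the immature cluster, which Bcas1os2 led. Immature nuclei made up 2.62, 2.78, 2.08, 2.19, 2.67 and 1.78% of libraries 1 to 6, and mature nuclei 5.44, 5.21, 1.09, 1.35, 4.41 and 1.22%. The OPC-like class contained 2 small clusters with 640 nuclei (15.6% of the class) in which 73.5 and 79.8% of nuclei had a doublet score of at least 0.8, against 1.96% in the large OPC-like cluster, 10.2% in immature and 23.1% in mature nuclei.

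All 10 members stood at least 2-fold above the OPC-like level in immature nuclei, and 7 of them (Enpp6, Bcas1, Gpr17, Bmp4, Neu4, Tns3 and Itpr2) were also at least 2-fold higher than in mature nuclei. Among all 14427 genes with at least 100 UMIs in the lineage, 4.08% were at least 2-fold above OPC-like, 4.64% above mature and 1.57% above both. With the nuclei of the highest doublet scores left out, the share above mature was 9.39%, and the same number of members passed. The members' median log2 ratio was 2.53 over OPC-like nuclei and 2.08 over mature nuclei, and over all genes it was -0.04 and 0.12. The other 3 members, Dusp15, Rras2 and 9630013A20Rik, did not fall again by 2-fold in mature nuclei. No test was made, because libraries without a group label were not treated as replicates of 1 group, and ratios are given within each of the 6 libraries instead. Nuclei of a library are not replicates, and the intervals below are exact 95% intervals that cover counting error only. Ratios are given between classes and not between genes, because counts were not scaled for gene length. Where library values of classes are said below not to overlap, the share of all genes with such separate values was not computed.

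**Figure D1:**
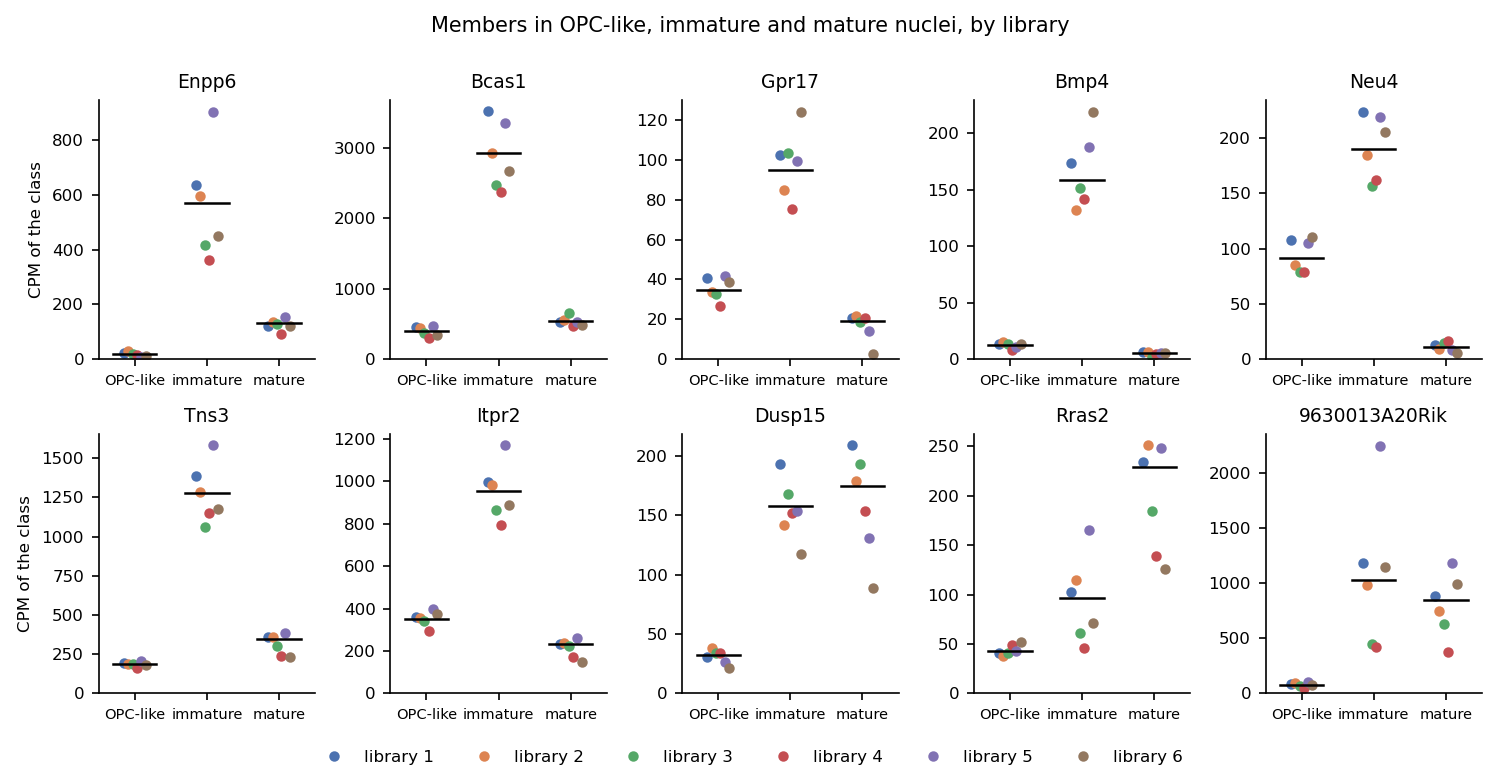
Level of each member (CPM of the class, linear axis from 0, own scale in each panel) in OPC-like, immature and mature nuclei. Points are the 6 libraries and black lines the 6 libraries summed. For Enpp6, Bcas1, Gpr17, Bmp4, Neu4, Tns3 and Itpr2 the 6 immature points lie above all OPC-like and mature points, and in each library Rras2 is highest in mature nuclei. The share of all genes with such separate points was not computed.

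Of the members, Bmp4 had the largest fall from immature to mature nuclei. Its rise over OPC-like nuclei was smaller than that of Enpp6 (29.8-fold) and near that of 9630013A20Rik (13.3-fold). In immature nuclei Bmp4 stood between 132 CPM (library 2) and 218 CPM (library 6), with a median of 162 over the libraries. In OPC-like nuclei it stood between 7.92 and 14.9 CPM, and in mature nuclei between 1.85 and 6.50 CPM. The 3 ranges were apart from each other. The ratio was 12.8-fold (11.1 to 14.7) over OPC-like and 27.5-fold (22.5 to 34.0) over mature nuclei. The mature level of Bmp4 in the sum, 5.76 CPM, was near the median of 11 other named classes (6.40 CPM). The size of the ratio over mature nuclei thus rests on a low level that other classes share. By the smaller of its 2 log2 ratios Bmp4 (3.674) ranked 1 among 14425 genes, barely above Dct (3.672), which is not a member. In mature nuclei 2 to 6 UMIs of Bmp4 were counted in libraries 3, 4 and 6, so its ratios in those libraries are imprecise.

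The receptor gene Gpr17 moved in the same way but less far. It stood at 75.1 to 124 CPM (median 101) in immature, 26.8 to 41.9 CPM in OPC-like and 2.65 to 21.7 CPM in mature nuclei, and no library's immature level overlapped the other classes. The ratio was 2.72-fold (2.45 to 3.01) over OPC-like and 4.99-fold (4.39 to 5.67) over mature nuclei. The lowest mature value, in library 6, rests on 2 UMIs.

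Enpp6 was low in progenitors. It stood at 637, 595, 418, 361, 901 and 448 CPM in the immature nuclei of libraries 1 to 6, against 8.92 to 28.3 CPM in OPC-like and 93.6 to 153 CPM in mature nuclei. Library 5 was the highest and library 4 the lowest in immature nuclei, and the classes did not overlap. Enpp6 had the largest rise of the members over OPC-like nuclei at 29.8-fold (26.8 to 33.2), and its level in mature nuclei remained 4.36-fold (4.15 to 4.58) lower than in immature nuclei but 6.83-fold (6.11 to 7.66) above OPC-like nuclei. The OPC-like level of Enpp6 in the sum, 19.1 CPM, was near that of macrophage-like nuclei (20.3 CPM), the highest of 11 other named classes. The size of its rise thus rests on a low level that another class shares.

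Neu4 was already present in progenitors. It stood at 78.5 to 111 CPM (median 95.5) in OPC-like nuclei and rose to 157 to 224 CPM (median 195) in immature nuclei, a ratio of 2.08-fold (1.95 to 2.23) that reached 2-fold in 4 of 6 libraries. Neu4 then fell to 5.30 to 16.6 CPM in mature nuclei, 17.4-fold (15.0 to 20.2) below the immature level. Against the large OPC-like cluster alone, the rise was no longer 2-fold (log2 ratio 0.72). Of the members, Neu4 was the one with the lowest mature level relative to progenitors, at 0.12 of the OPC-like level.

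Bcas1 and Tns3 were both far higher in immature nuclei than on either side. Bcas1 went from 296 to 465 CPM in OPC-like to 2377 to 3518 CPM in immature nuclei, 7.33-fold (7.15 to 7.52), and back to 475 to 651 CPM in mature nuclei, 5.43-fold lower (5.31 to 5.56). Tns3 went from 159 to 204 CPM to 1063 to 1581 CPM, 6.87-fold (6.62 to 7.14), and back to 230 to 383 CPM, 3.69-fold lower (3.58 to 3.81). In all 6 libraries both ratios of both genes were above 2-fold. Bcas1os2, the transcript antisense to Bcas1 that stayed among the genes used for clustering, had the same shape at 73.4, 639 and 134 CPM.

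The calcium channel gene Itpr2 was 2.73-fold (2.64 to 2.82) above OPC-like and 4.13-fold (3.98 to 4.28) above mature nuclei. Its immature level lay between 796 CPM (library 4) and 1170 CPM (library 5), above all OPC-like values (294 to 398 CPM) and all mature values (148 to 262 CPM). Like Neu4, Gpr17 and Bmp4, it ended below its starting level, with mature nuclei at 0.66 of the OPC-like level (0.64 to 0.69).

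Dusp15, Rras2 and the non-coding RNA 9630013A20Rik stayed high in mature nuclei at resolution 1, where most nuclei of a second immature cluster described below were counted as mature. Dusp15 stood at 117 to 193 CPM in immature and 88.7 to 209 CPM in mature nuclei, with overlapping libraries and a ratio of 0.90 (0.85 to 0.96), while OPC-like nuclei stood at 21.1 to 38.6 CPM. Rras2 was lower in immature nuclei (46.1 to 166 CPM, median 87.0) than in mature nuclei (126 to 252 CPM, median 210) in 6 of 6 libraries, at 0.42 of the mature level (0.39 to 0.45). This order depended on the clustering, since at resolution 2.0 the log2 ratio of Rras2 between immature and mature nuclei turned from -1.24 to 2.52. Its rise over OPC-like nuclei, 2.25-fold in the sum, was present in 5 of 6 libraries and at least 2-fold in 3 of 6, and was below 2-fold without library 5 (log2 ratio 0.99).

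In immature nuclei the non-coding RNA differed most between libraries among the members. It stood at 1183, 984, 446, 418, 2241 and 1144 CPM in libraries 1 to 6, and in mature nuclei at 881, 747, 631, 380, 1182 and 993 CPM. Every one of these values lay above the OPC-like range of 46.0 to 102 CPM, and the immature and mature ranges overlapped. Its rise over OPC-like nuclei was 13.3-fold (12.6 to 14.1), and the ratio of immature to mature was 1.22 (1.19 to 1.25), above 1 in 5 of 6 libraries. Of the immature class 11.6, 8.71, 2.27, 1.12, 14.2 and 6.16% in libraries 1 to 6 lay in the second of the 2 immature clusters described next, where the level was higher. Within the first of those clusters the levels were 1131, 928, 458, 479, 1929 and 929 CPM in libraries 1 to 6. Pcdh17, which overlaps 9630013A20Rik on the other strand, had another shape, at 256, 277 and 305 CPM in OPC-like, immature and mature nuclei.

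Clustering at a higher resolution (2.0) moved nuclei of the mature class into a second immature cluster and changed the values of these 3 members. It gave 2 clusters named immature, a first one of 1531 nuclei, of which 99.5% lay in the immature class above, and a second one of 640 nuclei, of which 78.0% lay in the mature class and 22.0% in the immature class. The second cluster carried 1007 CPM of the myelin gene Mag and 1979 CPM of Mobp beside 2335 CPM of the transcription factor gene Tcf7l2 and 2522 CPM of Cnksr3, and 16.8 CPM of Pdgfra. Mag stood at 97.9 CPM in the first immature and 647 CPM in the mature clusters, and Mog rose from 47.6 CPM in the first through 298 CPM in the second immature cluster to 927 CPM in the mature clusters. The second cluster was led by Cnksr3, Cldn14, Gm26834, Cemip2, Fam107b and Casr.

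All 10 members were highest in 1 of the 2 immature clusters, 6 in the first and 4 in the second, and so were 50.9% of 14411 genes, 36% in the first and 14.9% in the second. Rras2 stood at 45.7 CPM in OPC-like, 55.2 CPM in the first immature, 880 CPM in the second immature and 64.3 CPM in the mature clusters. This was 15.9-fold higher in the second than in the first cluster and 13.7-fold higher than in the mature clusters, in 6 of 6 libraries each, with 768 to 958 CPM in the second cluster and 50.4 to 74.7 CPM in the mature clusters. The non-coding RNA 9630013A20Rik showed the same peak, at 930 CPM in the first, 3776 CPM in the second and 178 CPM in the mature clusters, and Dusp15 stood at 167, 328 and 138 CPM. Dusp15 was higher in the second than in the first cluster in 5 of 6 libraries, at least 2-fold in 2 of them, with a log2 ratio of 0.97 (0.85 to 1.09) in the sum.

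**Figure D2:**
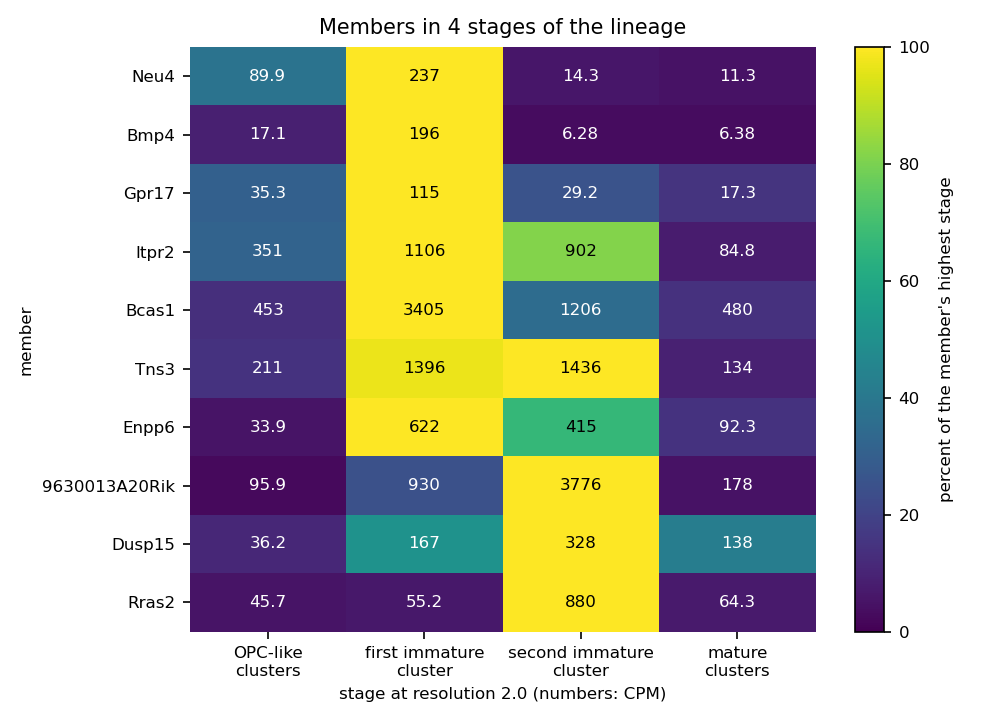
CPM of each member (numbers) in 4 stages at resolution 2.0, coloured by the percent of the member's own highest stage, so that rows share no scale of level. Neu4, Bmp4 and Gpr17 are highest in the first immature cluster, Rras2 and 9630013A20Rik in the second, and Tns3 and Itpr2 are high in both.

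Members of the early end were low in the second cluster. Bmp4 fell from 196 to 6.28 CPM between the first and the second immature cluster, Neu4 from 237 to 14.3 CPM and Gpr17 from 115 to 29.2 CPM, and in 6 of 6 libraries each was at least 2-fold higher in the first. Bcas1 was 2.82-fold higher in the first cluster (3405 against 1206 CPM) and was still 2.51-fold higher in the second than in the mature clusters. Among all 14411 genes tested, 10.9% were at least 2-fold higher in the first than in the second immature cluster, and among the members 4 of 10 were. In the other direction the share was 5.88% of all genes and 2 of 10 members. Second immature over mature gave 3.4% of all genes and 7 of 10 members, and first immature over OPC-like 4.21% and 9 of 10, Rras2 being the exception (log2 ratio 0.27).

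Tns3, Itpr2 and Enpp6 spanned both clusters. Tns3 stood at 1396 and 1436 CPM, a log2 ratio of -0.04 (-0.09 to 0.01) for first over second, and Itpr2 at 1106 and 902 CPM. Enpp6 stood at 622 and 415 CPM, higher in the first cluster in 5 of 6 libraries. In the mature clusters Tns3 was 10.7-fold, Itpr2 10.6-fold and Enpp6 4.49-fold lower than in the second immature cluster. At resolution 1.0 most nuclei of the second cluster were counted as mature. There the falls of Tns3 (3.69-fold) and Itpr2 (4.13-fold) were smaller, and that of Enpp6 (4.36-fold) was nearly the same. Those falls start from the whole immature class and not from the second cluster. The second cluster held 203, 209, 30, 22, 155 and 21 nuclei of libraries 1 to 6, so its levels in libraries 3, 4 and 6 rest on few nuclei.

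Along a maturation axis built without the members, the genes peaked at different points. The axis is the share of a nucleus's OPC-marker and mature-marker UMIs that came from mature markers, cut into 10 bins of 839 or 840 nuclei over 8399 nuclei, and its OPC list includes Tnr and Sox6. The CPM-weighted mean decile was lowest for Neu4 (4.37), Gpr17 (4.95), Itpr2 (5.16) and Bmp4 (5.27), followed by Bcas1 (5.77), Tns3 (6.08) and Enpp6 (6.53), and was highest for Dusp15 (7.25), Rras2 (7.40) and 9630013A20Rik (7.46). Bmp4 peaked in decile 6 at 129 CPM (118 to 140), 7.13-fold above decile 1 and 41.0-fold above decile 10. Enpp6 peaked in decile 7 at 549 CPM (527 to 571), 29.0-fold above decile 1 and 4.92-fold above decile 10. Immature nuclei made up 55.7% of decile 6 and 61.7% of decile 7, and the share of all genes that peak in these deciles was not computed.

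**Figure D3:**
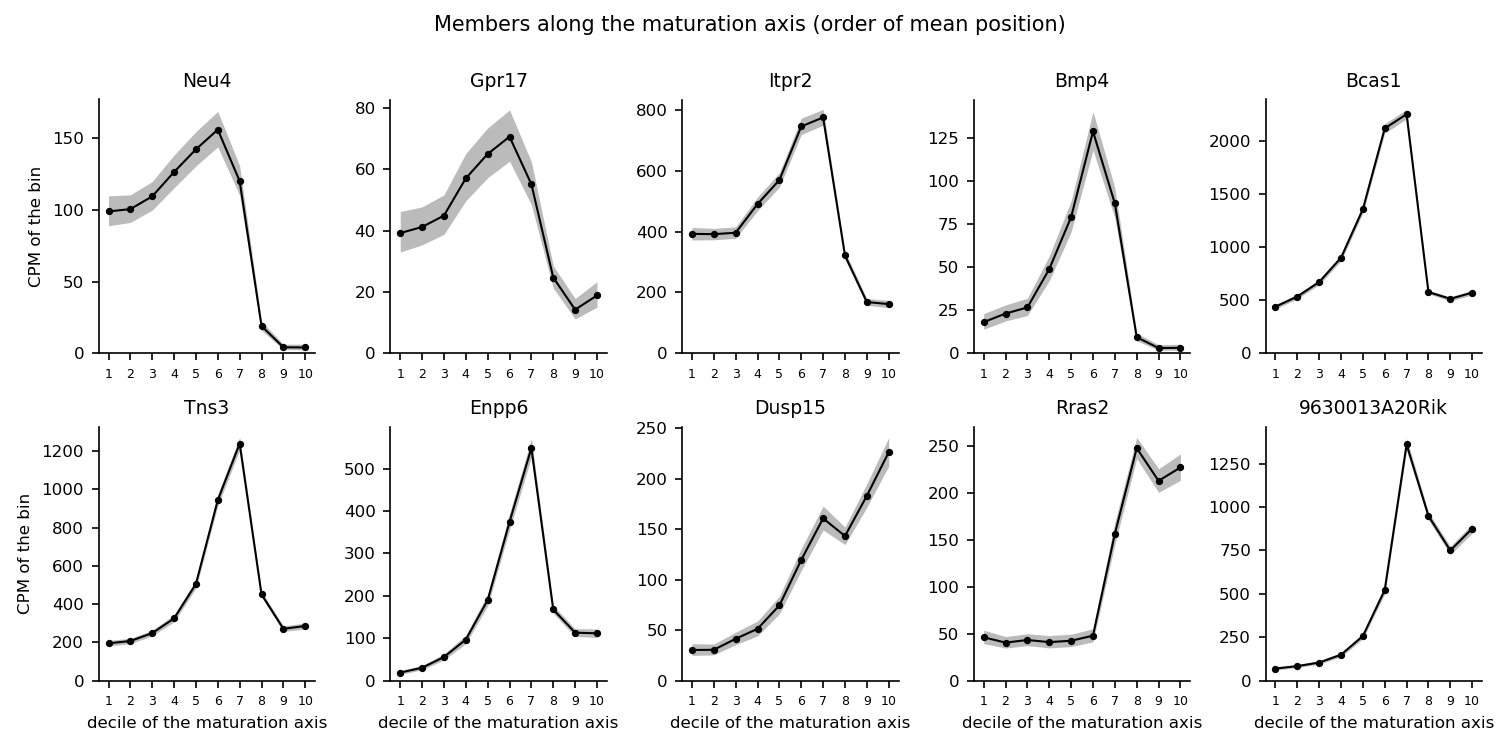
Level of each member (CPM of the bin, axis from 0, own scale in each panel) over 10 deciles of the maturation axis, in the order of mean position, with grey bands for exact 95% Poisson intervals. Neu4, Gpr17 and Bmp4 peak in decile 6, Itpr2, Bcas1, Tns3, Enpp6 and 9630013A20Rik in decile 7, Rras2 in decile 8 and Dusp15 in decile 10.

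Counting intervals set the highest decile apart for some members and not for others. This depends on the number of UMIs and does not measure the width of a peak. The interval of the highest decile overlapped no other decile for Bmp4, Bcas1, Tns3, Enpp6, Dusp15 and 9630013A20Rik, 1 other decile for Neu4, Itpr2 and Rras2, and 2 for Gpr17. For Bcas1, decile 6 (2120 CPM) was close to decile 7 (2254 CPM), and its highest decile was 6 or 7 depending on the library. Taken library by library, Bmp4 was highest in decile 6 and 9630013A20Rik in decile 7 in 6 of 6 libraries, and Tns3 and Enpp6 were in decile 7 in 5 of 6. Gpr17 ranged from decile 4 to 6, Dusp15 from decile 7 to 10 and Rras2 from decile 8 to 10, at 9, 10, 8, 10, 9 and 8 in libraries 1 to 6. Rras2 changed little through decile 6 (40.5 to 47.9 CPM) and then rose to 157 CPM in decile 7 and 248 CPM in decile 8. Decile 8, where Rras2 was highest, also had the deepest nuclei (median 6478 UMIs) and the highest median doublet score (0.742, against 0.177 to 0.475 in the other deciles), and the part of these in its level was not tested.

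Single nuclei carried several members at once. After each nucleus was thinned to 2000 UMIs, so that depth did not differ, immature nuclei held a median of 5 of the 10 members, OPC-like and mature nuclei 2, and inhibitory neurons 0. Of 1711 immature nuclei, 1411 (82.5%, 80.6 to 84.2) held at least 4 members, against 9.70% of OPC-like and 21.5% of mature nuclei. No nucleus held all 10, and 8 immature nuclei and 1 macrophage-like nucleus held 9. Thinning left out 107 immature, 443 OPC-like and 140 mature nuclei with fewer UMIs, and without thinning the 3 shares were 95.3, 31.9 and 48.8%.

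**Figure D4:**
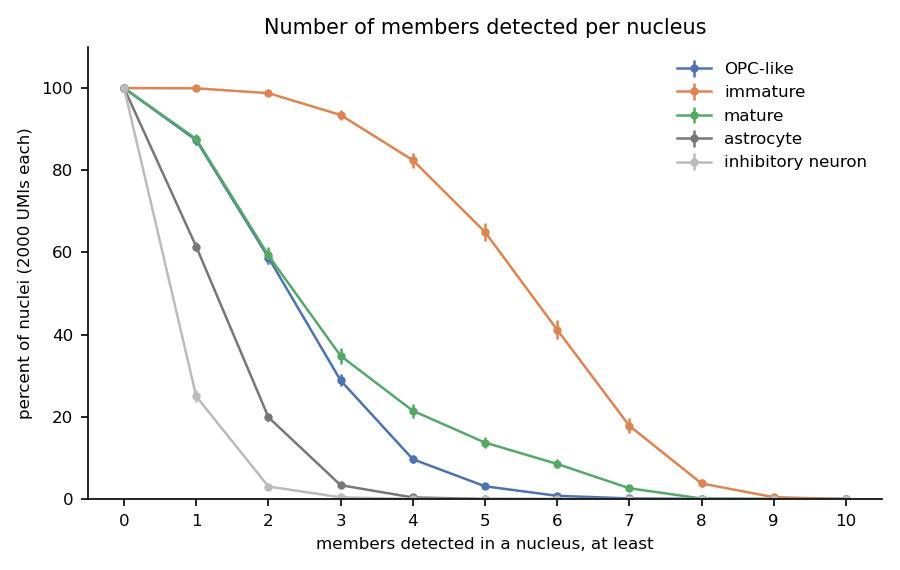
Percent of nuclei (thinned to 2000 UMIs each) in which at least the given number of members was detected, with exact 95% binomial intervals. The immature curve stays at 82.5% at 4 members, where mature nuclei are at 21.5% and OPC-like nuclei at 9.70%.

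At that depth Bcas1 was detected in 97.1% of immature nuclei, Tns3 in 80.2%, Itpr2 in 79.2%, 9630013A20Rik in 66.5% and Enpp6 in 60.2%. The other 5 members were detected in 14.0% (Rras2) to 33.2% (Neu4). In inhibitory neurons, a neuronal class set beside the lineage for comparison, the shares were 0.572% for Bmp4 to 4.32% for 9630013A20Rik and 8.38% for Rras2. This class did not have the lowest share for every member, and in striatal projection neurons the shares were 4.61% (4.08 to 5.19) for Rras2, 1.79% for Dusp15, 0.644% for Neu4 and 0.487% for Bmp4. Median depth before thinning was 3944.5 UMIs in immature nuclei, 7225 UMIs in inhibitory neurons and 6575 UMIs in striatal projection neurons. Before thinning Bcas1 was detected in 98.9% and Rras2 in 24.9% of immature nuclei. In the first immature cluster the Rras2 share of 9.44% (7.97 to 11.1) overlapped that of inhibitory neurons (7.48 to 9.35) but not that of striatal projection neurons, while in the second immature cluster it was detected in 64.9% of 624 nuclei (61.0 to 68.7).

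Of the 2533 nuclei of any class that held at least 4 members, 55.7% were immature, 19.9% mature, 14.0% OPC-like and 1.74% unnamed, and the remaining classes held 2.53% (macrophages) or less each. Among immature nuclei the share with at least 4 members was 86.7, 84.8, 73.8, 73.8, 92.1 and 83.7% in libraries 1 to 6. Libraries 3 and 4 were the lowest, and their intervals (68.5 to 78.6 and 68.1 to 79.0) did not reach that of library 1 (82.5 to 90.1). The 2 parts of the immature stage had overlapping intervals for this share, at 85.0% (83.1 to 86.8) in the first and 81.3% (78.0 to 84.2) in the second cluster. In the mature clusters of that resolution it was 7.02%, or 131 of 1867 nuclei. Bmp4 was detected in 32.5% of the first and 0.962% of the second, and Rras2 in 9.44 and 64.9%.

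Pairs of members showed which genes shared a nucleus. In the 7720 lineage nuclei, 41 of 45 pairs were detected together more often than the product of their single shares. The same share was not computed for pairs of other genes, so this count has no background beside it. The highest ratio was that of Enpp6 with Bmp4, seen together in 340 nuclei, 2.66 times the product, with 2.38 to 3.12 over the libraries. Next came Bmp4 with Neu4 (2.14), then Enpp6 with 9630013A20Rik (1063 nuclei against 506 by the product) and Bmp4 with 9630013A20Rik (2.02). The lineage nuclei span 3 stages, and within a single class the median over the 45 pairs was 1.15 in OPC-like, 1.03 in immature and 1.30 in mature nuclei. In the same order 36, 34 and 41 of 45 pairs were above 1. Bcas1 was detected in 97.1% of immature nuclei, which leaves its pairs there little room above 1.

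The lowest ratio was that of Bmp4 with Rras2, the early and the late gene. They were found together in 47 nuclei, 0.61 of the product, and in 1 of 6 libraries the ratio was above 1. Neu4 with Rras2 followed at 0.73 and Neu4 with Dusp15 at 0.88. Within immature nuclei Bmp4 with Rras2 was again the lowest at 0.56 and Dusp15 with Rras2 the highest at 1.46. That class mixes nuclei of both immature clusters of resolution 2.0, and within the first of them the ratio of Bmp4 with Rras2 was 0.80 (35 nuclei against 43.9 by the product), that of Neu4 with Rras2 1.04 and that of Dusp15 with Rras2 1.33. Within the second cluster Dusp15 with Rras2 was at 1.06, and Bmp4 with Rras2 was seen in 2 nuclei against 3.89 by the product. In the second immature cluster 6 of 624 nuclei held Bmp4 and 405 held Rras2.

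**Figure D5:**
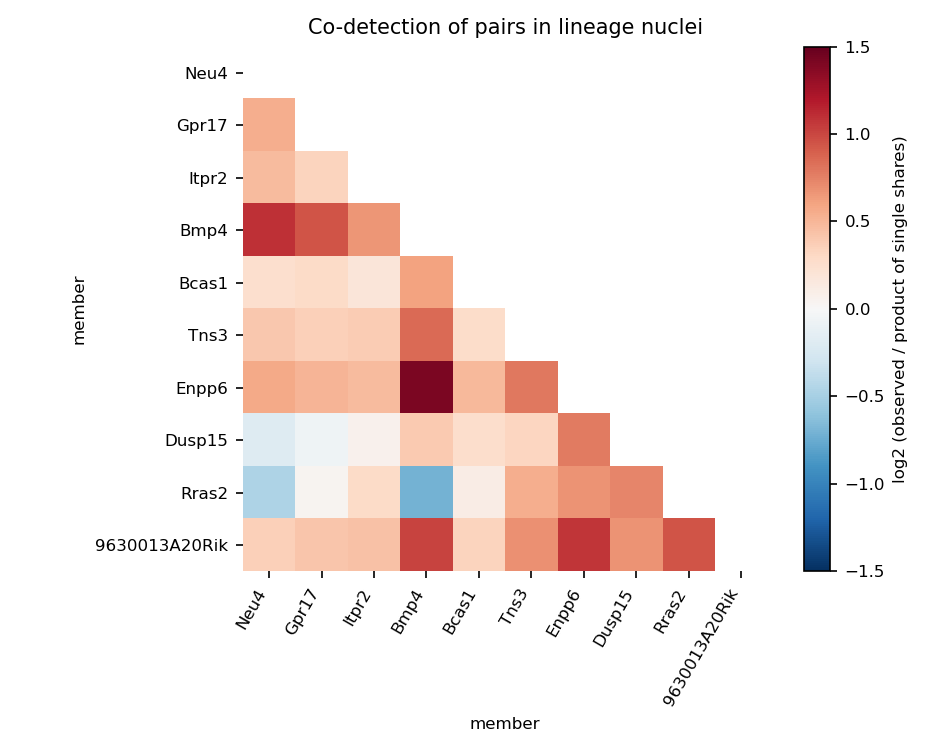
Co-detection of each pair of members in 7720 lineage nuclei thinned to 2000 UMIs, as log2 of the observed number over the product of the single shares, with members in the order of their mean position on the axis. Red pairs were seen together more often than the product and blue pairs less often, with Enpp6 and Bmp4 (2.66 times) and Bmp4 and Rras2 (0.61) as the ends.

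Stage markers were counted in the same nuclei. Over all 7720 lineage nuclei Pdgfra was detected in 27.8%, Tcf7l2 in 35.7% and Mog in 25.3%. Of lineage nuclei with Bmp4, 6.17% held the progenitor marker Pdgfra, 62.3% Tcf7l2 and 10.3% Mog. With Neu4 these shares were 28.9 (near that of all lineage nuclei), 47.2 and 9.11%, and with Dusp15 11.2, 47.6 and 39.7%. Tcf7l2, a marker of the immature list, was detected in 15.3% of lineage nuclei with no member and in 67.9% of those with at least 4, and Pdgfra in 32.3% and 9.11%. Of the myelin genes Mog was lower with at least 4 members than with none (16.2 against 29.5%), and Mag was higher (33.5 against 25.4%).

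In the other named classes the members stood below their immature level, but not always below their OPC-like or mature level. The 3 lineage classes held 9.17% of all UMIs, yet 73.3% of the UMIs of Bcas1, 72.7% of Enpp6, 67.6% of 9630013A20Rik, 65.2% of Neu4 and 59.2% of Tns3. Rras2 had the smallest lineage share of the members, 17.4%. Nuclei left unnamed held 55.5% of its UMIs, but they also held 262709887 of the 497727021 UMIs of all genes. Rras2 stood at 69.7 CPM in unnamed nuclei, near its 66.2 CPM over all nuclei. Of 11 other classes named from their markers, Bmp4 was highest in fibroblast-like nuclei (54.7 CPM, 50.5 to 59.2), Tns3 in microglia-like nuclei (260 CPM, 248 to 272) and Itpr2 in pericyte-like nuclei (314 CPM, 293 to 336). In the lineage, OPC-like nuclei stood at 12.4 CPM of Bmp4 and 186 CPM of Tns3, and mature nuclei at 231 CPM of Itpr2, all below those classes. The same genes stood at 2.25, 10.8 and 14.8 CPM in inhibitory neurons, their lowest class. Immature nuclei were above each of these highest classes, by 2.90-fold for Bmp4, 4.92-fold for Tns3 and 3.04-fold for Itpr2, and by 28.0-fold for Enpp6. Rras2 was only 1.16-fold above its highest other class, at 96.7 CPM (90.4 to 103) in immature and 83.1 CPM (71.8 to 95.6) in choroid plexus-like nuclei, with overlapping intervals, and OPC-like nuclei were lower at 43.1 CPM. Dividing nuclei stood at 15.2 CPM of Enpp6 and 148 CPM of Bcas1.

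Over all nuclei of a library, where the level depends on how many lineage nuclei it holds as well as on each nucleus, 9630013A20Rik spanned 4.56-fold between libraries and Rras2 1.28-fold. The values of 9630013A20Rik were 114, 104, 31.6, 29.0, 132 and 44.9 CPM in libraries 1 to 6, those of Enpp6 28.1, 31.7, 13.2, 12.8, 29.7 and 10.1 CPM, and those of Bcas1 163, 160, 88.8, 85.5, 129 and 64.2 CPM. Fewer cells of a stage and less RNA per cell cannot be told apart in such a sum. The share of mature nuclei, given above for each library, differed between libraries as well, and its part in the members' levels was not tested.

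Other genes of the same stage, a list of 18 chosen with earlier results of these data known, shared the pattern in part. Compared with OPC-like nuclei, 13 of 18 were at least 2-fold higher in immature nuclei, and 8 of 18 were so against mature nuclei and against both classes. Among all genes tested the shares were 4.08% against OPC-like, 4.64% against mature and 1.57% against both. In the other direction, 7 of 18 had an interval of the log2 ratio below 0 against mature nuclei. Bcas1os2, whose reads may not be kept apart from those of Bcas1, is among the 13 and the 8. The median log2 ratio was 1.77 over OPC-like and 0.63 over mature nuclei. Myrf, the factor that switches on myelin genes, had the highest ratio over OPC-like nuclei (log2 3.22) and Ccp110 the lowest (-0.04). Nkx2-2, a homeobox factor of the lineage, had the highest over mature nuclei (3.26), and Casr, the calcium-sensing receptor gene, the lowest (-5.31). At resolution 2.0 Casr was highest in the second immature cluster, at 172 CPM.

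Across the 35 clusters, the genes whose log2(CPM + 1) followed each member most closely were named by a fixed rule, members left out. For 9630013A20Rik they were Bfsp2 (r = 0.97), Fa2h and Myrf, for Enpp6 Bfsp2 (0.95), Sirt2 and Urm1, and for Dusp15 Capn5 (0.90), Gal3st1 and Bfsp2. For Bcas1 they were Bcas1os2 (0.98), Gjc3 and Sox10, for Gpr17 Olig2 (0.94), Fbxo7 and C1ql1, and for Neu4 S100a2 (0.95), C1ql1 and Has2. For Tns3 they were Zfp740 (0.92), Qk and Bcas1os2, for Itpr2 Wipf1 (0.97), Pld1 and Elf1, and for Bmp4 Gpr180 (0.88), Pmel and Cd9. Rras2 had the lowest values, with Spns2 (0.78), Agpat4 and Hid1. These correlations describe clusters that share libraries, depth and neighbours.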

How the data were processed

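Forebrain nuclei of 6 mice at P16, 3 of them WT and 3 Npc1-/-, were profiled with the 10x 3′ v2 kit. The deposited matrix holds raw UMI counts per gene and barcode and, per the file headers, was written by Cell Ranger 6.0.0, whereas the submitters' processing notes name Cell Ranger 2.1.1 and mm10. The methods of the study describe another aligner (STARsolo) and filters on empty droplets and doublets, which were not rebuilt here. The 1 value column joins 6 libraries and names no mouse, so genotypes were not compared. Libraries without a group label were not treated as replicates, and no p-value was computed.

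Nuclei with a mitochondrial share of 10% or more were left out. After scaling each nucleus to 10000 counts and taking logs, 3000 variable genes without the members, 30 principal components and 20 neighbours entered Leiden clustering (scanpy 1.11.5, leidenalg 0.10.2, resolution 1). Clusters were named from 16 marker lists, with naming limits set after clusters had been seen. Doublets were scored against simulated doublets and not removed. CPM is UMIs of a gene per 1000000 UMIs of a class. Intervals are exact Poisson or binomial at 95% (scipy 1.17.1). Genes with at least 100 UMIs over the 3 classes gave the background. The scripts were tested on simulated data.

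All 10 members were named, with the 3 most similar genes each (at least 200 UMIs), and the highest and lowest of a list of 18 genes of the stage. Members and lists were chosen with earlier results of these data known. Alternatives varied the clustering, filters, doublets, scaling, weights, bins, thinning and libraries, and 2 (the largest OPC-like cluster alone, and shared barcodes left out) were chosen after seeing the data.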

Additional observations from a re-analysis of the deposited data

How the results depend on the processing

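The number of members at least 2-fold above OPC-like nuclei was 9 or 10 under every alternative run. Rras2 was lost with the members kept in the clustering and without library 5, and Neu4 at resolutions 0.5 and 2.0 and against the largest OPC-like cluster alone. Against mature nuclei the number was 7 except at resolution 2.0, where Rras2 and 9630013A20Rik were added to give 9. There the log2 ratio of Rras2 between immature and mature nuclei turned from -1.24 to 2.52, since that clustering counts the second immature cluster as immature, and that of Dusp15 from -0.15 to 0.72. Of 300 log2 values under alternatives, 194 lay within the 95% counting interval of the reported value, 105 lay outside it and 1 ratio of at least 2-fold reversed. With the highest doublet scores left out, 9.39% of all genes were at least 2-fold above mature nuclei, against 4.64%. The share of immature nuclei with at least 4 members was 95.3% without thinning, 90.8% with thinning to 3000 UMIs and 86.8% with the highest doublet scores left out, and leaving out 1 library each gave 80.8 to 84.4%. The number of members highest in deciles 6 or 7 ranged from 6 to 9, and the share of all genes highest in those deciles was not computed. Detection at 2000 UMIs limits what can be said of members with few UMIs, and libraries 3, 4 and 6 give 21 to 30 nuclei of the second immature cluster. No paired analysis was made. Classes paired by library could have been tested and were not, since unlabelled libraries were not used as replicates, and their ratios are given within each library.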

Other observations

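The second immature cluster at resolution 2.0 made up 1.47, 1.30, 0.203, 0.180, 1.44 and 0.256% of the nuclei of libraries 1 to 6, and the first immature cluster 2.08, 2.30, 1.90, 1.96, 2.16 and 1.49%. The mature clusters made up 4.32, 4.18, 0.926, 1.19, 3.36 and 1.08% of the same libraries, so a wide spread between libraries was not particular to the second immature cluster. The libraries cannot be assigned to WT or Npc1-/- mice, and these values are given without a comparison.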
